A study of Homo sapiens with 2 samples.

Results

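The expression of 10 genes of the endoplasmic reticulum (ER) and ATF4 stress responses was compared in MiaPaCa cells, an established human pancreatic cancer line, with and without silencing of the transcription factor MYB. They are HSPA5, CRELD2, HERPUD1, MANF, NUPR1, PHGDH, ASNS, SESN2, GDF15 and HMOX1. The 10 were selected by gene name from the 836 loci in the authors' deposited table, with their differences between the libraries already known, so those differences describe the genes and test nothing. All 10 were found, each at 1 locus. One library came from the Scr control, cells transfected with the plasmid pGFP-V-RS-Scr, whose genotype label reads MYB-overexpression. The other came from the MYB-silenced cells, transfected with pGFP-V-RS-shMYB, a short hairpin RNA plasmid against MYB. Both were stable pools selected with puromycin in the same line, and the labels name no MYB expression plasmid for the control.

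Each group has 1 library, so no value below has a replicate error and no test between the groups was possible. Values are FPKM, fragment counts divided by transcript length and by the size of the library, which can be compared between genes because they are scaled to length. A fold is the plain FPKM ratio. A log2 ratio is log2(MYB-silenced + 0.5) minus log2(Scr control + 0.5), where 0.5 FPKM is the pseudocount, and a positive value means higher in the MYB-silenced library. MYB itself was at 981 FPKM in the Scr control and 0.554 FPKM in the MYB-silenced library. Of 39 markers of ductal, fibroblast, blood, endothelial, acinar and endocrine cells, 1 was listed, INS, within a joint IGF2, INS and INS-IGF2 locus, at 2.43 FPKM in the Scr control and 4.72 FPKM in the MYB-silenced library. The table therefore does not check the labelled cell type, since none of the 9 ductal epithelial markers was among them. Sequencing depth is unknown.

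When unfolded proteins build up in the ER, the sensors ATF6, IRE1 and PERK start the unfolded protein response. ATF6 and the IRE1 product XBP1 switch on genes for chaperones and for the disposal of misfolded proteins. PERK and related kinases phosphorylate eIF2 alpha, which slows translation in general but favours that of ATF4, a transcription factor for amino acid synthesis, transport and redox genes. Oxidants act through another factor, NRF2, of which HMOX1 is a known target. Pancreatic acinar cells, which secrete large amounts of digestive enzymes, are a classic setting of ER stress, and both responses are known to be active in many tumours.

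In the MYB-silenced library, 9 of the 10 genes were higher and 1, SESN2, was lower. Of the 797 listed loci that averaged at least 1 FPKM over the libraries, 37.6% were higher and 62.4% lower. Differences of at least 2-fold (an absolute log2 ratio of at least 1) were seen for 6 genes in the higher direction, against 19.9% of those loci. They were seen for 1 gene in the lower direction, against 24.7%. Of the 797 loci, 159 were at least 2-fold higher and 197 lower, or 300 and 31 when each ratio was centred on their median, which is that of loci selected for change. The direction of these genes took part in their choice, so the counts are not read against those shares. The table holds loci with a p-value of 0.04995 or less in the authors' own comparison, and of the 797 loci only 1 had an absolute log2 ratio under 0.7. Genes that differed less between the libraries were not analysed here. The 10 genes had a median log2 ratio of 1.16, and the 797 loci one of -0.80. In these bulk libraries a change in the share of cells that express a gene and a change of RNA per cell cannot be told apart.

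**Figure D1:**
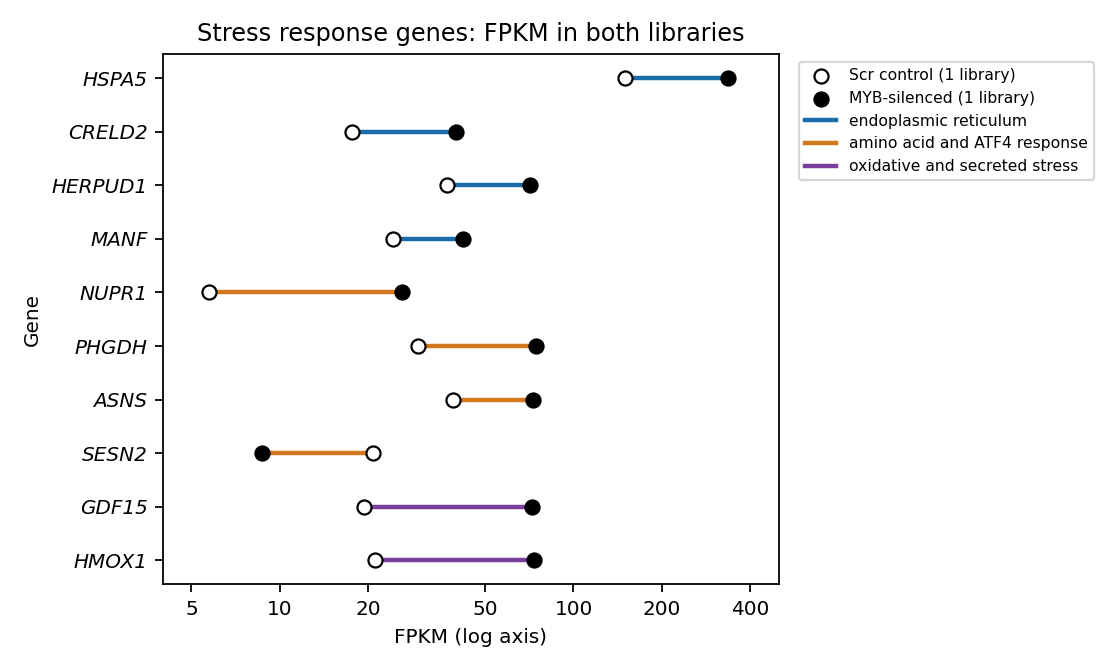
FPKM of the 10 genes in the Scr control library (open circles) and the MYB-silenced library (filled circles) on a log axis, with 1 library a group and lines coloured by role. HSPA5 lies far to the right of the others in both libraries, SESN2 alone moves to the left, and HERPUD1, PHGDH, ASNS, GDF15 and HMOX1 end between 71.2 and 74.8 FPKM.

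The ER genes were higher by similar factors. HSPA5 encodes BiP, the main Hsp70 chaperone of the ER, which also holds the stress sensors inactive. It was at 149.95 FPKM in the Scr control and 336 FPKM in the MYB-silenced library, a fold of 2.24 and a log2 ratio of 1.16. Among the 836 listed loci its level ranked 33 in the control and 7 after silencing. Its gain of 186 FPKM was the largest of the 10 genes in absolute terms. CRELD2, an ER-resident disulphide isomerase-like protein, was at 17.7 and 39.9 FPKM, a fold of 2.26 and a log2 ratio of 1.15. HSPA5 was thus several times more abundant than CRELD2, yet their folds were nearly alike.

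HERPUD1 is an ER membrane protein that organises the ubiquitin ligase complex for degradation of misfolded proteins. Its level was 37.1 FPKM in the Scr control and 71.2 FPKM in the silenced cells, a fold of 1.92 and a log2 ratio of 0.93. MANF, an ER-resident factor that binds BiP and is also secreted under stress, was at 24.2 and 41.9 FPKM, a fold of 1.73 and a log2 ratio of 0.78. It had the smallest fold of the 9 higher genes. The authors' deposited table gives MANF an unadjusted p-value of 0.0497, the closest of the 10 to the highest listed value. Over the 4 ER genes the median log2 ratio was 1.04, and the values spanned 0.38 on that scale. HSPA5 ranked 90 and MANF 271 from the top of the 797 loci, of which 300 were higher. Many other listed loci thus fell within that span, ASNS among them. The order of levels, HSPA5, HERPUD1, MANF and CRELD2, was the same in both libraries.

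ATF6 acts with the factor NF-Y at the ER stress response element (ERSE), and promoters of the ER genes are shown because 3 of the 4 hold an exact match to it or to its variant ERSE-II. Promoter windows of 250 bases before and 50 after the transcription start came from RefSeq (GRCh38.p14), which held 8 of the 10 genes, NUPR1 and HMOX1 being the others. Both strands were searched. A gene counted as having a match if any of its windows had one, whereas a share of all windows counts each window. The ERSE was spelled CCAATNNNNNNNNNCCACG, and 0.0769% of all 35116 windows held it. The ERSE-II was spelled ATTGGNCCACG, and 0.0541% held it. The 250 bases before the start are printed 5′ to 3′ on the strand of the gene, with matches in capitals. HSPA5 lies on the minus strand (chr9:125241344-125241593, GRCh38.p14) and has an ERSE at bases -66 to -48. HERPUD1 lies on the plus strand (chr16:56931892-56932141) and has an ERSE-II at -117 to -107 and, at -176 to -169, a match on the other strand to the C/EBP-ATF element described below.
HSPA5: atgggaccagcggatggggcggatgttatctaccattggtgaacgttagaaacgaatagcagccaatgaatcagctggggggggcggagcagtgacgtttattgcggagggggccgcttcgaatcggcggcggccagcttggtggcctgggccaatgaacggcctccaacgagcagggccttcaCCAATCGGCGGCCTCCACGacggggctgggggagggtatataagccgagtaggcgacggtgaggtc
HERPUD1: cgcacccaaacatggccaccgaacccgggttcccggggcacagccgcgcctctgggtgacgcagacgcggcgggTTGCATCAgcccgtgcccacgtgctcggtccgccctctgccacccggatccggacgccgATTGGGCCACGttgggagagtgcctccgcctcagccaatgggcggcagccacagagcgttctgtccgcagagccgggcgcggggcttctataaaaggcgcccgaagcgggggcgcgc

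CRELD2 has an ERSE on the opposite strand at -80 to -62, whose letters are set beside those of HSPA5 to show the 9 bases between the fixed ends.
CRELD2 ERSE: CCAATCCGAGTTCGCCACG
HSPA5 ERSE: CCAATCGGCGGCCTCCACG

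The MANF window held neither element but had 3 CCAAT boxes, the NF-Y part of the ERSE, spelled CCAAT. An ERSE always contains a CCAAT box and an ERSE-II contains one on the other strand, and 34.6% of all windows have such a box. Among listed single-gene loci with a promoter window, 196 genes were higher and 378 lower after silencing. The ERSE was found in 2 of the 196, HSPA5 and CRELD2, and in 0 of the 378. The ERSE-II was found in HERPUD1 and HYOU1 among the higher genes and in SHCBP1 among the lower ones. HSPA5, CRELD2 and HERPUD1 were chosen with their direction known, and the motifs with earlier results known. These counts are therefore not read as a contrast between higher and lower genes. A match describes the letters of the window and does not show that a factor binds there.

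**Figure D2:**
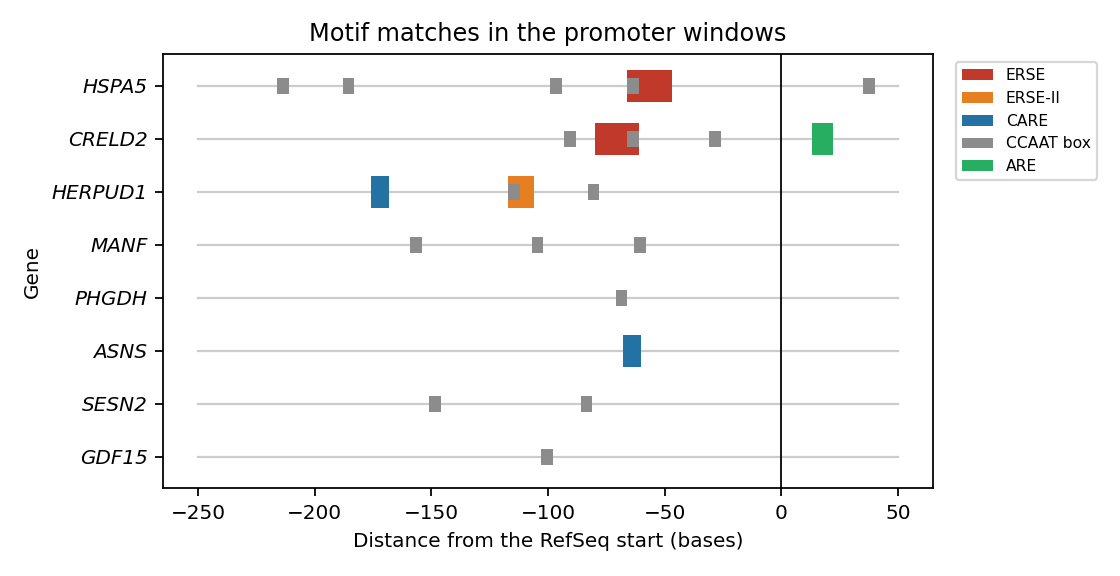
Matches to 5 motifs in the promoter windows of 8 genes, by distance in bases from the RefSeq start at 0, with each bar as long as its motif. ERSE matches lie within 80 bases before the start in HSPA5 and CRELD2, the ERSE-II lies in HERPUD1, and the C/EBP-ATF element (CARE) in HERPUD1 and ASNS; of the 2 ASNS windows in RefSeq, 1 has a match.

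The amino acid and ATF4 genes did not share a direction. NUPR1, a small stress-induced chromatin protein first known from pancreatitis, had the lowest control level of the 10, 5.74 FPKM, and was at 26.2 FPKM after silencing. Its fold of 4.56 and log2 ratio of 2.10 were the largest of the 10, at rank 21 from the top among the 797 loci. PHGDH, the enzyme that commits 3-phosphoglycerate to serine synthesis, was at 29.5 and 74.8 FPKM, a fold of 2.54 and a log2 ratio of 1.33. ASNS, asparagine synthetase, was at 38.8 and 72.6 FPKM, a fold of 1.87 and a log2 ratio of 0.90. Both synthetic enzymes were thus higher after silencing.

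SESN2 encodes sestrin 2, a leucine sensor that restrains mTORC1 and is a target of ATF4, NRF2 and p53. It was at 20.7 FPKM in the Scr control and 8.68 FPKM in the MYB-silenced library, 2.38 times lower, with a log2 ratio of -1.21. It was the only one of the 10 to be lower, at rank 100 from the bottom of the 797 loci. Centred on the median of the listed loci its log2 ratio was -0.41, under 2-fold. The median log2 ratio of these 4 genes was 1.11, close to the 1.04 of the ER genes, but their values spanned 3.30 on the log2 scale against 0.38. Without SESN2 they ran from 0.90 to 2.10.

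ATF4 binds with C/EBP proteins at the C/EBP-ATF response element (CARE), searched as TGATGNAA and held by 3.62% of all windows. ASNS is a textbook case, and its promoter is printed because it holds a match at -68 to -61 (minus strand, chr7:97872409-97872658, GRCh38.p14), in capitals.
ASNS: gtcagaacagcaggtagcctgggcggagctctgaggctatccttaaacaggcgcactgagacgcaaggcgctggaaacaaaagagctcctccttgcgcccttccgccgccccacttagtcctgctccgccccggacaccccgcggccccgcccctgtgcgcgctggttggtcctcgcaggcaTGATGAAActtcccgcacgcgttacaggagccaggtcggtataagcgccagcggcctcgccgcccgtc
The windows of PHGDH, SESN2 and GDF15 held no CARE, and only a match within 250 bases before or 50 after the start would be seen. Among listed genes the CARE was in 6 of the 196 higher (3.06%) and 15 of the 378 lower (3.97%). BCAT1 was among the higher genes with a match and ATF3 among the lower ones. The core of the MYB element, spelled AACNG, was in 6 of the 8 genes, HSPA5, HERPUD1, MANF, PHGDH, ASNS and SESN2, but also in 77.2% of all windows. The core of the unfolded protein response element, TGACGTG, was in 0 of the 8 genes and 1.97% of windows. The antioxidant response element of NRF2 (ARE), searched as TGACNNNGC, was in CRELD2 alone, at 13 to 21 after the start, and in 13.3% of windows. Among listed genes the MYB core was in 71.9% of the higher and 84.4% of the lower. The TGACGTG core was in 2.04% of the higher and 3.44% of the lower, and the ARE in 14.3% and 19.8%. For the CCAAT box the shares were 46.4% and 51.6%.

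The oxidative and secreted stress genes stood high in the ratio order and ended at nearly equal levels. GDF15, a secreted TGF-beta family cytokine linked to cachexia, was at 19.4 FPKM in the Scr control and 72.4 FPKM in the MYB-silenced library, a fold of 3.73 and a log2 ratio of 1.87. HMOX1, haem oxygenase 1, which breaks haem down to biliverdin, iron and carbon monoxide, was at 21.1 and 73.4 FPKM, a fold of 3.48 and a log2 ratio of 1.78. They ranked 23 and 26 from the top of the 797 loci. Their control levels differed by a factor of 1.09 and their levels after silencing by a factor of 1.01. With NUPR1 they were the 3 genes with a log2 ratio above that of every ER gene by more than 0.6, and PHGDH was the fourth gene above HSPA5. The authors' deposited table gives HMOX1 an unadjusted p-value of 5e-05, GDF15 one of 0.00035 and NUPR1 one of 0.0001.

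In all, 5 genes of different roles came to lie close together after silencing. HERPUD1, PHGDH, ASNS, GDF15 and HMOX1 were between 19.4 and 38.8 FPKM in the Scr control, a spread of 2.00 times, and between 71.2 and 74.8 FPKM in the MYB-silenced library, a spread of 1.05 times. The window from 70 to 76 FPKM held 15 listed loci in that library, so these 5 were 5 of 15. The grouping was noticed in the values and has no replicate.

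**Figure D3:**
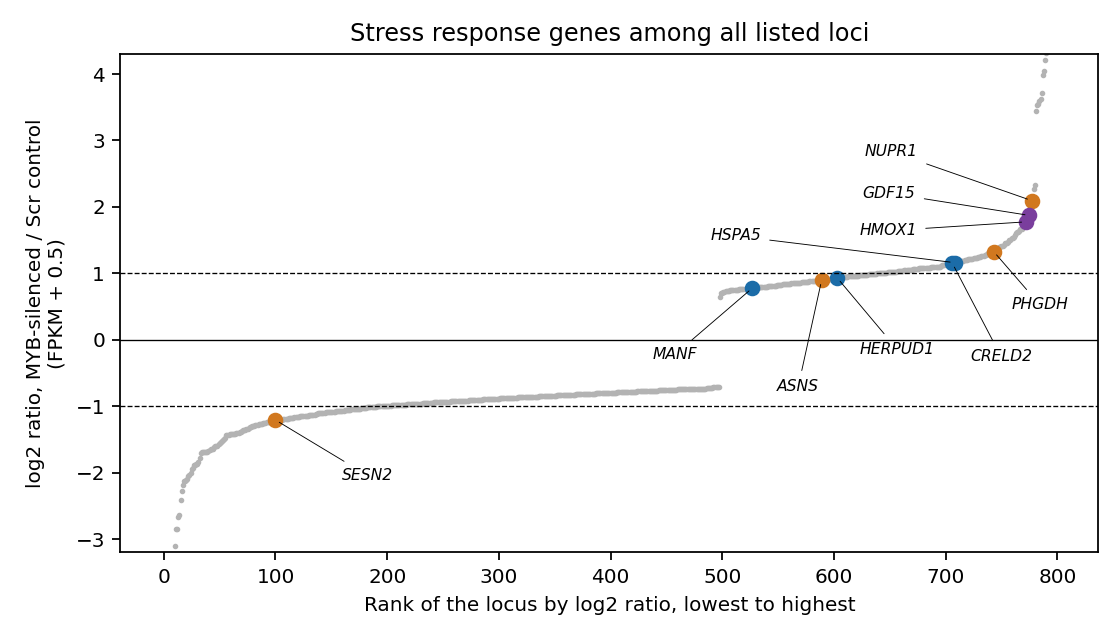
The log2 ratio (FPKM + 0.5) of the 797 loci in order, grey, with the 10 genes coloured by role as in the plot of FPKM; dashed lines mark a 2-fold difference, and 9 loci below and 8 above the drawn range are not shown. The ER genes and ASNS sit on the long flat stretch between 0.78 and 1.16, while NUPR1, GDF15 and HMOX1 sit on the steep upper end.

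At the 2-fold line, CRELD2 (log2 ratio 1.15) and HSPA5 (1.16) were the lowest of the genes above it, and HERPUD1 (0.93) and ASNS (0.90) the highest below it. At 3-fold, NUPR1, GDF15 and HMOX1 remained. SESN2 was past the line at 2-fold and not at 3-fold.

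Other genes of these pathways were taken from 19 gene lists. They had 41 distinct listed loci, of which 31 were not among the 10 genes, 15 higher and 16 lower. The lists were written with earlier results of the same data known and are described by counts.

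Among 29 ER chaperones and folding enzymes, 7 were listed, each of them higher, and their median log2 ratio was 0.89. Beside HSPA5, CRELD2 and MANF these were CRELD1, a membrane-bound relative of CRELD2 (3.78 and 8.13 FPKM), and ERO1LB, an ER oxidase of the pancreas (4.87 and 9.45 FPKM). HYOU1, the exchange factor of BiP (39.0 and 67.1 FPKM), and PDIA5, a disulphide isomerase (17.6 and 30.05 FPKM), completed them. TMX3, a disulphide isomerase of the ER membrane, was not in that list and was lower (26.8 and 8.19 FPKM, log2 ratio -1.65). The shared direction thus holds for the list and not for every listed folding enzyme. HERPUD1 was the only one listed of 30 genes of ER-associated degradation and translocation, and 0 of 17 genes of ER calcium handling were listed.

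Of 22 sensors and transcription factors of the unfolded protein response, 2 were listed. PPP1R15A, which recruits the phosphatase that reverses eIF2 alpha phosphorylation and is itself ATF4-induced, was lower, with 24.8 FPKM in the Scr control against 10.8 FPKM in the silenced cells (log2 ratio -1.16). CREB3L3, a liver-type ER membrane factor, was higher but under 1 FPKM in both libraries (0.226 and 0.866 FPKM). ATF4, DDIT3 and XBP1 were not among the listed loci, and their levels were not analysed here.

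Among 41 ATF4 target genes, 9 were listed, 7 higher and 2 lower, with a median log2 ratio of 0.99. PPP1R15A, described above as ATF4-induced and lower, was not in that list and is in neither the counts nor the median. KLHL24, a ubiquitin ligase adaptor (14.98 and 34.9 FPKM), PCK2, the mitochondrial enzyme that makes phosphoenolpyruvate (30.7 and 61.4 FPKM), and CEBPB, an ATF4 partner (28.4 and 51.1 FPKM), were higher, as were NUPR1, GDF15, PHGDH and ASNS. ATF3, a repressor induced by ATF4 and by many other signals, was lower with SESN2, at 14.7 and 5.66 FPKM (log2 ratio -1.30). Stress regulators among the listed ATF4 targets thus went both ways, while the 3 metabolic enzymes, PHGDH, ASNS and PCK2, were higher.

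PHGDH was the only one listed of 20 genes of serine, glycine and one-carbon metabolism. In the list of 20 genes for other amino acid synthesis, ASNS, PCK2 and BCAT1, a branched-chain aminotransferase (1.37 and 2.93 FPKM), were listed and higher. PCK2 stands in that list but makes phosphoenolpyruvate and not an amino acid. The taurine transporter SLC6A6 was the only listed member of 27 amino acid transporters (6.28 and 11.8 FPKM, log2 ratio 0.86). Those 27 do not include every such transporter. SLC38A4, an amino acid transporter outside them, was lower (4.09 and 1.92 FPKM, log2 ratio -0.93). Of 22 genes of cytosolic tRNA charging, 1 was listed, the aspartyl-tRNA synthetase DARS, which was lower (139.9 and 78.6 FPKM, log2 ratio -0.83). In the mTORC1 amino acid sensing list of 25, SESN2 was lower and RRAGD, a Rag GTPase, higher (16.2 and 27.96 FPKM, log2 ratio 0.77).

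Few other genes of the NRF2 and redox lists were listed beside HMOX1. Of 30 NRF2 targets, 1 other was listed, the drug efflux pump ABCC3, higher at 0.789 and 3.37 FPKM (log2 ratio 1.58). Of 24 redox regulators and antioxidant enzymes, 0 were listed. In the haem and iron list of 19, the biliverdin reductase gene BLVRB was higher (54.3 and 100.8 FPKM, log2 ratio 0.89). The transferrin receptor TFRC was lower (178 and 90.1 FPKM, log2 ratio -0.98).

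SESN2 and GDF15 are also p53 targets, and they went in opposite directions there. Of 24 sestrin, GADD45 and p53 stress genes, 8 were listed, 2 higher and 6 lower, all by at least 2-fold. Centred on the median of the listed loci, the 6 lower genes ran from -0.85 to -0.22, so that 0 of them were 2-fold lower. The CDK inhibitor CDKN1A (8.40 and 2.33 FPKM, log2 ratio -1.65) and the growth arrest gene GADD45A (68.5 and 25.8 FPKM, -1.39) were lower with SESN2. So were the polyamine acetyltransferase SAT1 (-1.19), the p53 ubiquitin ligase MDM2 (-1.15) and the antiproliferative gene BTG2 (-1.02). The pro-apoptotic gene BBC3 was higher with GDF15 (7.01 and 15.8 FPKM, log2 ratio 1.12). Of 20 stress-linked apoptosis regulators, BBC3, BMF (0.587 and 1.47 FPKM, log2 ratio 0.86) and BNIP3L (76.6 and 39.9 FPKM, log2 ratio -0.93) were listed. GDF15 was the only listed member of 19 TGF-beta superfamily ligands.

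The cytosolic heat-shock genes that were listed were not higher before centring, and the others were not analysed here. Of 24 cytosolic heat-shock genes 3 were listed and all 3 were lower, except that BAG3 turned higher by 0.03 when centred, and their median log2 ratio of -0.80 was near that of the 797 loci. They were the Hsp40 gene DNAJA1 (103.6 and 59.1 FPKM), the Hsp110 gene HSPH1 (116 and 66.5 FPKM) and the co-chaperone gene BAG3 (33.7 and 19.6 FPKM). After that centring DNAJA1 and HSPH1 were within 0.01 of 0. Centring raised every ratio by construction, so the 9 higher genes described above could only stay higher, and no contrast is drawn from it. HSPA5 is also a reported MYB target, and of the 20 genes in that list 4 were listed, with HSPA5 higher and BIRC3 (-2.28), SHH (-1.25) and CDK1 (-0.96) lower.

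**Figure D4:**
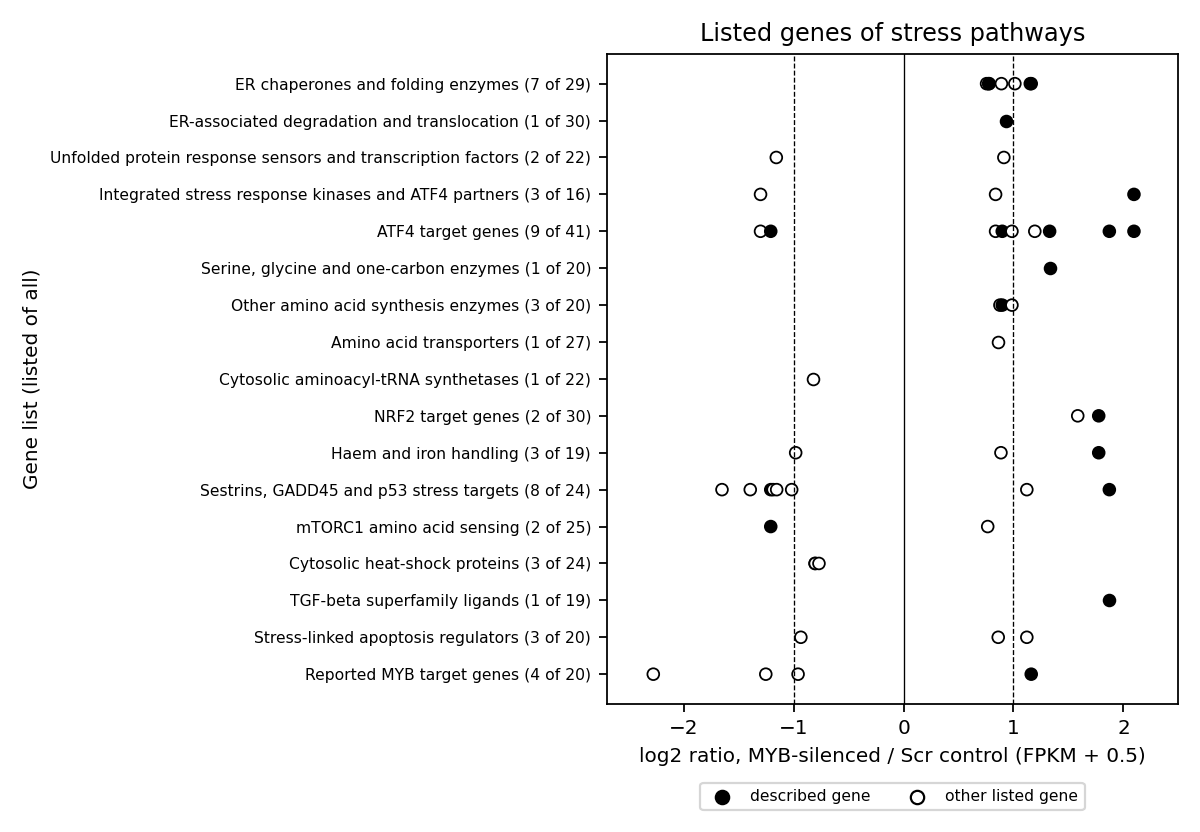
The log2 ratio (FPKM + 0.5) of each listed gene of 17 gene lists, 1 row a list, with the 10 genes filled and other listed genes open; a gene may stand in several rows, and dashed lines mark a 2-fold difference. The ER chaperone row lies wholly to the right of 0, the heat-shock row wholly to the left (BAG3 crosses to 0.03 when centred), and the ATF4 and p53 rows on both sides. TMX3, SLC38A4, MT1A and MT1M, which were lower, and CYBA and NOXA1, which were higher, are in none of the lists and are not drawn.

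Direction over the table moved with the GC content of the transcripts, so the GC content of each gene is given beside its direction. In 5 bins of the 783 loci with a known GC content, the share of higher loci ran from 7.64% in the lowest bin to 88.5% in the highest. ASNS (43.9% GC) and HSPA5 (46.0%) lie in the second bin, where 12.8% of 156 loci were higher. The ratios of ASNS and HSPA5 were at or above 144 and 147 of the 156 there, the gene itself included here and below. HERPUD1 (48.6%) and MANF (50.2%) lie in the third bin, with 30.6% higher, and were at or above 125 and 115 of its 157 loci. CRELD2 (59.8%), NUPR1 (60.7%), PHGDH (56.4%) and SESN2 (59.5%) lie in the fourth, where 50% were higher. In that order they were at or above 134, 153, 140 and 31 of its 156 loci. GDF15 (61.5%) and HMOX1 (60.8%) lie in the fifth, where 88.5% were higher, and their ratios were at or above 155 and 153 of the 157 loci. The genes were chosen with these same ratios known, so their places within the bins only describe them. The part of GC content in these differences was not tested.

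**Figure D5:**
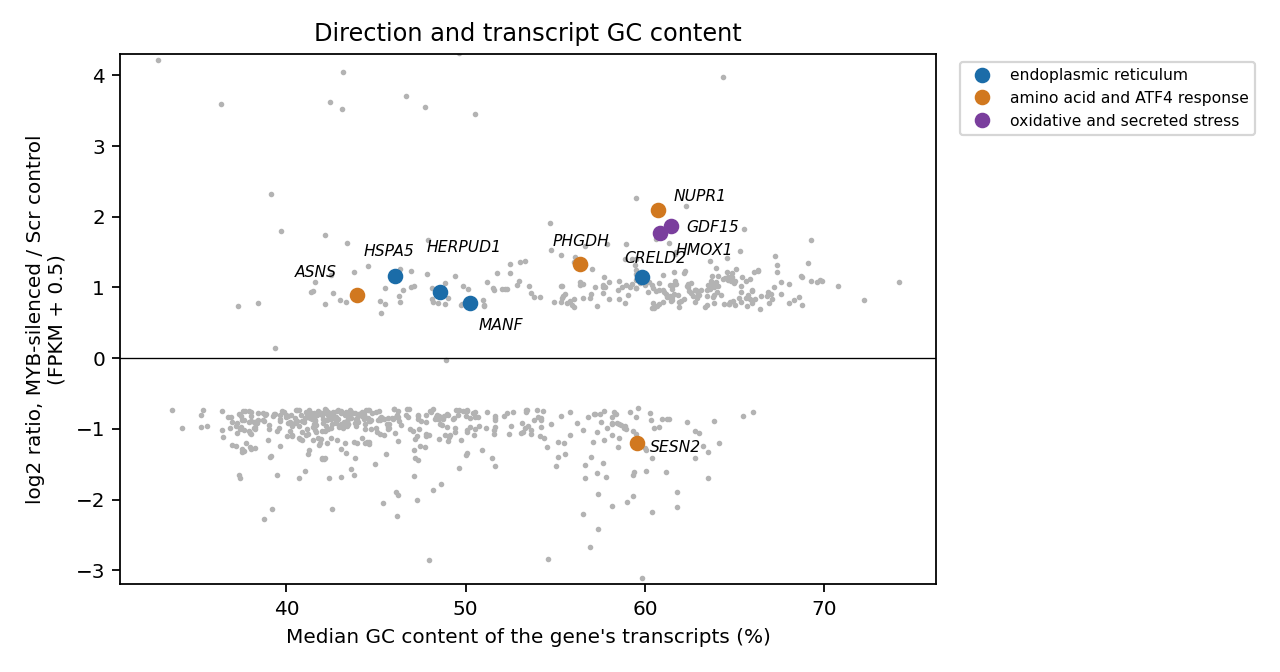
The log2 ratio (FPKM + 0.5) of each locus against the median GC content of the transcripts of its gene in percent, with the 10 genes coloured by role and other loci grey; 8 loci below and 7 above the drawn range are not shown. ASNS, HSPA5, HERPUD1 and MANF are higher at a GC content where most loci are lower, and SESN2 is lower at the GC content of CRELD2 and NUPR1. The 10 genes were chosen with their direction known, so these positions only describe them, and the part of GC content was not tested.

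The loci lie on chromosomes 9 (HSPA5, 127997127 to 128003717), 22 (CRELD2, 50312283 to 50321186, and HMOX1, 35777060 to 35790207), 16 (HERPUD1, 56965748 to 56977793, and NUPR1, 28548662 to 28550495) and 3 (MANF, 51422692 to 51426828) of hg19. The others lie on chromosomes 1 (PHGDH, 120254419 to 120286849, and SESN2, 28585963 to 28609002), 7 (ASNS, 97481429 to 97501854) and 19 (GDF15, 18496968 to 18499986). Each span is that of the whole gene locus, exons and introns together. An exon of CRELD2 overlaps one of ALG12 on the opposite strand, and the sources used here do not give the strand setting of the counting, so reads from that overlap cannot be told apart. ASNS overlaps a non-coding transcript on its own strand and has 4 named pseudogenes (ASNSP1, ASNSP3, ASNSP4 and ASNSP6), which makes its level uncertain where reads are shared.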

How the data were processed

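RNA of 1 Scr control and 1 MYB-silenced library was sequenced. Per the submitters' processing notes, CASAVA 1.8.2, TopHat, Bowtie and Cufflinks and the build hg19 were used, with no roles given. The annotation, the scaling between libraries and the strand were not given in the sources used here. The authors deposited FPKM values, an unadjusted p-value, a signed fold score and a plain log2 ratio for 836 loci. Counts and depth are unknown.

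From the FPKM values, ratios were computed in Python 3.11.15 (numpy 2.4.6, pandas 2.3.3) with a pseudocount of 0.5. Counts over all loci use those with a mean of at least 1 FPKM (797). The ratio, count and motif steps were tested on simulated data. The 10 genes, the gene lists and the motifs were chosen with earlier results of these data known. All 10 genes are named, with up to 4 loci per list by size of the ratio and, beyond that rule, every other listed gene of the folding, ATF4 target and p53 lists. Promoters are printed for 3 of the genes with a match to the ERSE, ERSE-II, CARE or ARE. SHCBP1, TMX3, SLC38A4, MT1A, MT1M, CYBA and NOXA1 were named after their values were seen.

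Locus starts were raised by 1, because RefSeq gene lengths matched the printed end minus the printed start at 41 of 753 single-gene loci and that plus 1 at 7. GC content is the median over a gene's GENCODE 29 transcripts, found for 783 loci (93.7%). Alternatives were pseudocounts of 0.1 and 1, no level filter or a mean of at least 5 FPKM, centring, folds of 1.5 and 3 and a p-value of at most 0.01.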

Additional observations from a re-analysis of the deposited data

How the results depend on the processing

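A median or ratio is said to move when its fold changes by over 1.5 times, and a count when it does so. Centring on the median of the 797 listed loci (-0.80), a set selected for change, raised every ratio by construction. The medians became 1.84 for the ER genes, 1.91 for the amino acid and ATF4 genes and 2.62 for the oxidative and secreted genes, and the 10 genes ran from -0.41 (SESN2) to 2.90 (NUPR1), with no reversal. Genes at least 2-fold lower then numbered 0 of the 10, and listed loci at least 2-fold different 300 higher and 31 lower. At 1.5-fold, 300 loci were higher and 497 lower. At 3-fold, 35 and 48 were, and 3 and 0 of the 10 genes. At a p-value of at most 0.01 in the authors' deposited table, 240 loci were left. Of these, 80 were at least 2-fold higher and 137 at least 2-fold lower, and of the ER genes CRELD2 alone was left. None of the 10 ratios moved with a pseudocount of 0.1 or 1. No library could be left out. No paired analysis was possible because each group has 1 library.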
